A study of Rattus norvegicus with 16 samples.

Results

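Mammary glands of 50-day-old female rats whose mothers had received genistein and vinclozolin together were compared with glands of rats whose mothers had received vinclozolin alone. The comparison comprised 4 of the 16 RNA pools of the series, 2 from the mixture group and 2 from the vinclozolin group, chosen from the treatment and age in the sample titles, and no control pool entered it. Every animal was a Wistar Han rat raised on a purified diet free of phytoestrogens. Dams of the mixture group were given genistein (Génistéine) at 1 mg/kg/day plus vinclozolin (Vinclozoline) at 1 mg/kg/day by oral gavage from gestational day 1 until postnatal day (PND) 21. Dams of the vinclozolin group received the same 1 mg/kg/day of vinclozolin over the same days, so both groups shared that exposure and differed in genistein. After weaning the offspring stayed on the purified diet until sampling, and each pool held RNA extracted separately from the glands of 5 females, 1 female per litter. The other pools used for reference were controls, genistein alone, and the same treatments at PND 35.

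Genistein, an isoflavone of soy, is a ligand of the estrogen receptors. Vinclozolin is used against fungi on crops, and its metabolites are antiandrogenic. In the pubertal and young adult gland, ovarian steroids, growth hormone and prolactin drive the growth of epithelial ducts into a fat pad, with waves of cell division and low expression of milk genes during each cycle. In a whole gland, the RNA comes from luminal and basal epithelium, adipocytes, stroma, vessels, immune cells and any adjoining muscle, lymph node or skin.

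Expression was read on Affymetrix arrays as log2 intensity, where a difference of 1 is a doubling, and 11796 genes were tested. The pools carried markers of the labelled tissue. Krt18 of luminal epithelium lay between 8.70 and 8.96 in the 4 pools, Krt14 of basal epithelium between 8.65 and 9.20, and Adipoq of adipocytes between 12.50 and 12.72. The 2 pools of a group correlated at 0.9963 for vinclozolin and 0.9962 for the mixture over all probe sets. Because each array carried pooled RNA, p-values measure the spread between pools and not between animals, and in bulk tissue fewer cells of a type and less RNA per cell cannot be told apart. Over all genes, the standard error of this difference had a median of 0.0941.

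At PND50, 4 genes passed the test, which is 0.0339% of those tested, with 2 higher and 2 lower in the mixture. The bicarbonate cotransporter gene Slc4a4 and the hepatocyte growth factor receptor gene Met were higher, and the glucose cotransporter gene Slc5a1 and the uncharacterised reading frame C9h2orf72 were lower. An unadjusted p under 0.05 was reached by 1342 genes (11.4%). All tested mitosis genes and fast muscle genes had lower values in the mixture and all tested interferon response genes higher ones, but no member of these lists passed. The test was limma's, fitted on all 16 arrays with 1 mean per group, with Benjamini-Hochberg adjustment over all genes and an adjusted p threshold of 0.05.

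Slc4a4 encodes a sodium bicarbonate cotransporter of epithelial membranes. It measured 8.97 and 9.04 in the vinclozolin pools and 9.73 and 9.73 in the mixture pools. The control pools stood at 9.07 and 9.12 and the genistein pools at 9.30 and 9.19, so only the mixture pools lay apart from the rest at this age. The log2 fold change was 0.73 with a standard error of 0.09, a 1.66-fold higher level (limma adjusted p = 0.0238).

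Met, the receptor tyrosine kinase through which stromal hepatocyte growth factor acts on epithelium, measured 9.15 and 9.13 with vinclozolin and 9.60 and 9.62 with the mixture. The controls had 9.11 and 9.09 and the genistein pools 9.05 and 9.10. All 6 pools outside the mixture thus lay within a narrow band below both mixture pools. Met rose by 0.47 ± 0.06 (SE), a 1.38-fold higher level with a limma adjusted p of 0.0264. It was also the only gene past the test when the mixture was set against the control pools at PND50 (limma adjusted p = 0.046), whereas Slc4a4 stood at 0.0508 there.

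Slc5a1 encodes the apical sodium and glucose cotransporter. It measured 8.04 and 7.75 in the vinclozolin pools and 6.99 and 6.77 in the mixture pools. Controls at 7.49 and 7.50 and genistein pools at 7.47 and 7.25 lay between the mixture and vinclozolin groups without touching either. Slc5a1 fell by 1.02 on the log2 scale with a standard error of 0.13, a 2.02-fold lower level (limma adjusted p = 0.0264).

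C9h2orf72 had the same arrangement. Its levels were 7.54 and 7.79 with vinclozolin, 6.44 and 6.67 with the mixture, 6.83 and 6.88 in controls and 6.96 and 6.96 with genistein. It fell by 1.10 with a standard error of 0.14, a 2.15-fold lower level (limma adjusted p = 0.0238). For both lower genes the reference pools show that the difference was made up of a vinclozolin level above control and a mixture level below it. The log2 fold change against control was 0.40 for vinclozolin and -0.61 for the mixture in Slc5a1, and 0.81 and -0.30 in C9h2orf72. None of these 4 side comparisons, which share the control pools, passed the test.

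**Figure D1:**
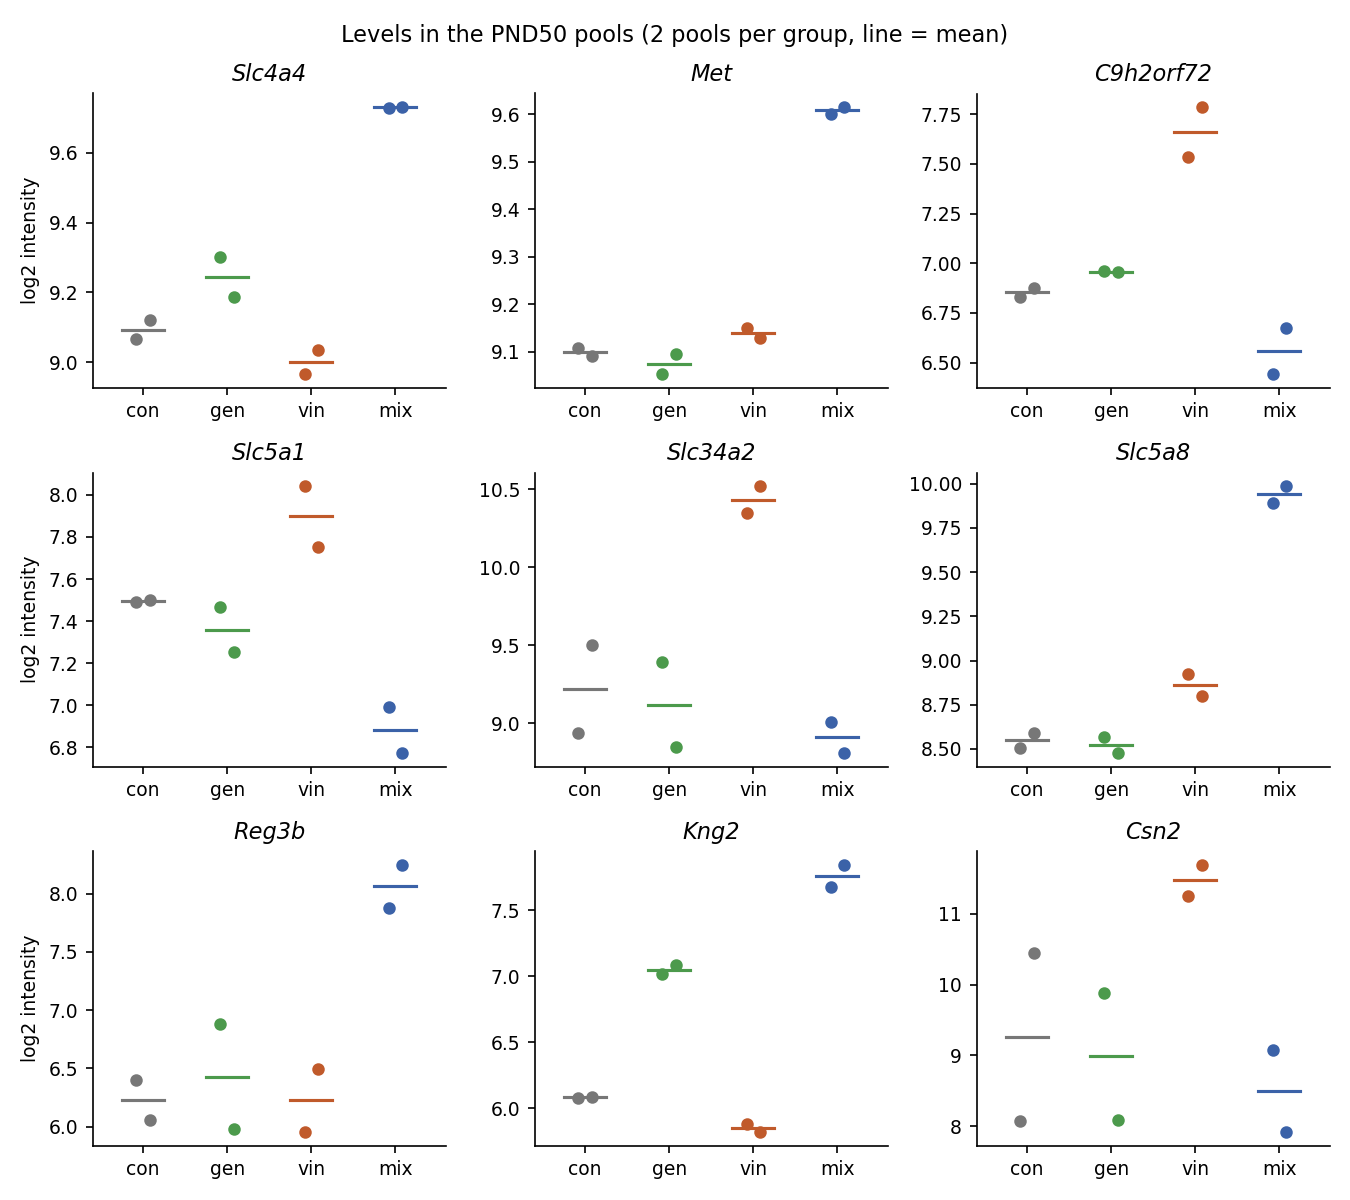
Log2 intensity (vertical axis) of 9 genes in the PND50 pools of control (con), genistein (gen), vinclozolin (vin) and mixture (mix). Points are the 2 pools of a group and lines are their mean; Slc4a4 and Met sit highest in both mixture pools, while Slc5a1 and C9h2orf72 sit lowest there and highest in both vinclozolin pools.

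These 4 calls rested on little replication. The count went to 0 when either vinclozolin pool, either control pool at PND50 or the second mixture pool at PND50 was left out, to 1 without either control pool at PND35, and to 2 other genes without the first mixture pool. With only the 4 arrays of the comparison fitted, 108 genes passed (0.916%), 25 higher (0.212%) and 83 lower (0.704%). That fit takes the spread from 2 pools per group alone, which leaves few degrees of freedom.

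Genes with at least a 1.5-fold difference and no overlap between the pools were also ranked by p. Those with the smallest p that did not pass were of mixed kinds. Among them were the transporter genes Slc34a2 and Slc5a8, the muscle genes Tnnt3, Pvalb and Eno3, and the mitosis genes Kif11 and Cdc20. Slc34a2, the sodium phosphate cotransporter of secretory epithelium, measured 10.35 and 10.52 with vinclozolin and 9.01 and 8.81 with the mixture, against 8.94 and 9.50 in controls. Its log2 fold change was -1.53 (limma adjusted p = 0.0721), and the mixture pools overlapped the control pools while the vinclozolin pools lay above them. Slc5a8, a cotransporter of lactate and other monocarboxylates, ran the other way, with 8.92 and 8.80 in the vinclozolin pools and 9.89 and 9.99 in the mixture pools. Controls at 8.51 and 8.59 and genistein pools at 8.57 and 8.48 placed it with Slc4a4, high in the mixture alone, at a log2 fold change of 1.08 (limma adjusted p = 0.138).

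Reg3b, a secreted antibacterial lectin, had 5.95 and 6.50 with vinclozolin, 7.88 and 8.25 with the mixture, and 6.40 and 6.06 in controls. Its log2 fold change of 1.84 was among the widest of the higher genes (limma adjusted p = 0.0815). Kng2, a kininogen, had 5.88 and 5.82 with vinclozolin and 7.67 and 7.84 with the mixture, but its genistein pools at 7.01 and 7.08 also lay above the controls at 6.08 and 6.09. The log2 fold change of Kng2 was 1.91 (limma adjusted p = 0.138). Cytip, a scaffold protein of leukocytes, had 8.29 and 8.13 with vinclozolin and 8.79 and 9.06 with the mixture, with the controls and genistein pools no higher than 8.26 (log2 fold change 0.72, limma adjusted p = 0.0964).

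The remaining higher genes of this kind were Or6n2, an odorant receptor gene, Grik3, a glutamate receptor subunit, and Mrps26 of the mitochondrial ribosome, with log2 fold changes of 0.71, 0.83 and 0.85. The control pools of Mrps26, at 9.41 and 9.27, lay closer to the mixture pools (9.49 and 9.78) than to the vinclozolin pools (8.77 and 8.80). Lipa, the lysosomal acid lipase, had 9.86 and 9.79 with vinclozolin and 9.29 and 8.92 with the mixture, and its controls at 9.10 and 9.30 stood at the mixture level. The histone variant gene H2az1 had a log2 fold change of -0.61 on the probe set used and of -0.02 on its other probe set, so its probe sets disagree.

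The division genes lay on 1 side. All 17 tested mitosis genes had negative log2 fold changes, from -1.21 to -0.34 with a median of -1.02, against a median of 0.0081 over all genes tested. In all 17, both mixture pools lay below both vinclozolin pools, where 21.4% of all genes tested did so. An unadjusted p under 0.05 was reached by 16, against 11.4% of all genes. None passed the adjusted test. The mean level over the list was 8.11 and 8.17 in the vinclozolin pools and 7.20 and 7.13 in the mixture pools. Genistein pools stood between them at 7.50 and 7.60, and the controls spanned most of that range at 7.32 and 8.05.

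Kif11, a motor of the mitotic spindle, measured 8.10 and 8.05 with vinclozolin and 6.94 and 6.98 with the mixture (log2 fold change -1.11 ± 0.20 SE, limma adjusted p = 0.138). Cdc20, the activator of the anaphase-promoting complex, measured 9.06 and 8.98 against 7.92 and 7.88. In both genes the pools of a group lay close together and the groups lay apart, while the second control pool, at 7.83 for Kif11 and 8.89 for Cdc20, lay near the vinclozolin pools. Top2a, the DNA topoisomerase of dividing cells, had 9.25 and 9.32 against 8.11 and 8.14. Cdk1, the kinase that starts mitosis, had 7.45 and 7.75 against 6.63 and 6.54, and the spindle midzone gene Prc1 had 8.33 and 8.47 against 7.43 and 7.40. With only the 4 arrays of the comparison fitted, 15 of the 17 mitosis genes fell, where 0.704% of all genes tested did. That fit takes the spread from these 2 groups alone and leaves out the control pools, whose list means were 7.32 and 8.05. In the fit on all 16 arrays no mitosis gene passed.

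Genes of the mitotic phase are known to carry a CHR element near a CCAAT box in their promoters. RefSeq promoters of GRCr8, running from 250 bases before to 50 bases after the start site, were searched on both strands for TTTGAA (CHR) and CCAAT. Of the 17 mitosis genes 14 had an entry. CHR was found in 9 of them (64.3%), CCAAT in 11 (78.6%) and both in 8 (57.1%), against 18.3%, 37.5% and 7.41% of all 33469 promoters. The stretch around the closest pair is shown for the 4 members of smallest p that have both, on the gene's own strand with matches in capitals (on the opposite strand they read TTCAAA and ATTGG). No match overlaps another in these stretches.
Cdc20, chr5:137255806-137255880, minus strand: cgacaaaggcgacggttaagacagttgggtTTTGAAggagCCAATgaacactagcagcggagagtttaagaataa
Prc1, chr1:143659401-143659480, plus strand: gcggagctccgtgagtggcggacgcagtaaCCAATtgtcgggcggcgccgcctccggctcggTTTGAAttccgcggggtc
Cdk1, chr20:19265182-19265256, plus strand: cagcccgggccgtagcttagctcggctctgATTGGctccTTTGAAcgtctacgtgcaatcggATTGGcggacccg
Top2a, chr10:84473094-84473180, minus strand: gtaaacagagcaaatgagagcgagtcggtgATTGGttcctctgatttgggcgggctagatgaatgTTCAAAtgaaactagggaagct
A match describes the letters and is not a measured site. The list was made of known mitosis genes, so its shares describe the list and not the pools measured here.

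DNA replication genes lay on the same side with smaller differences. All 15 tested members had negative log2 fold changes, with a median of -0.29. In 14, both mixture pools lay below both vinclozolin pools, where 21.4% of all genes tested did so. None passed the test and 7 had an unadjusted p under 0.05, against 11.4% of all genes. Uhrf1, which couples replication to the copying of DNA methylation, had 7.54 and 7.67 with vinclozolin and 7.0 and 6.80 with the mixture. Tyms, the thymidylate synthase, had 8.45 and 8.53 against 8.20 and 8.09, with controls at 8.32 and 8.57. The control pools of Uhrf1, 7.04 and 7.74, again covered nearly the whole distance between the groups.

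Milk protein genes were split. Of 20 tested milk protein and secretion genes 15 had a negative (47.1% over all genes) and 5 a positive log2 fold change, with a median of -0.23. None passed the test, and 9 had an unadjusted p under 0.05 (11.4% over all genes). Csn2, beta casein, measured 11.26 and 11.69 with vinclozolin and 9.07 and 7.91 with the mixture, and Wap, whey acidic protein, measured 9.75 and 10.14 against 8.56 and 8.47. The pools of these groups did not overlap, but the controls ran from 8.07 to 10.45 for Csn2 and from 8.10 to 8.94 for Wap. The log2 fold change of Csn2 was -2.98 ± 0.98 (SE, limma adjusted p = 0.275) and that of Wap -1.42 ± 0.40 (SE, limma adjusted p = 0.231).

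Glycam1, a mucin of milk and of lymph node vessels, had 11.70 and 12.31 with vinclozolin and 9.64 and 8.49 with the mixture, and its controls at 8.32 and 12.49 lay on both sides. Lalba, alpha-lactalbumin, did not share this pattern, with 12.04 and 12.33 against 12.59 and 12.72 (log2 fold change 0.48, limma adjusted p = 0.205). Aqp5, a water channel of secretory cells, also had the higher values in the mixture, 10.43 and 10.49 against 9.85 and 10.07, although its controls at 10.48 and 10.05 overlapped both groups. Mfge8, a milk fat globule protein, had 11.79 and 11.80 with vinclozolin and 11.44 and 11.38 with the mixture.

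The epithelial transporter list mostly ran the other way. Of 13 tested members 11 had positive log2 fold changes, with a median of 0.30, and Slc4a4 was the 1 member that passed, against 0.017% of all genes tested called higher. Slc6a14, an amino acid transporter, had 9.03 and 8.91 with vinclozolin and 9.81 and 9.61 with the mixture, beside 9.41 and 9.27 with genistein and 9.05 and 8.48 in controls. Its log2 fold change was 0.74 (limma adjusted p = 0.369). In 8 members both mixture pools lay above both vinclozolin pools, where 23.7% of all genes did so, and in 2, Slc34a2 among them, they lay below.

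Interferon response genes all had positive log2 fold changes. The 19 tested members ranged from 0.01 to 1.97 with a median of 0.44. In 16, both mixture pools lay above both vinclozolin pools, where 23.7% of all genes did so. An unadjusted p under 0.05 was reached by 11, against 11.4% of all genes. None passed the test. The mixture pools differed from each other, with a mean over the list of 8.21 in the first and 8.89 in the second, against 7.82 and 7.85 with vinclozolin, 8.30 and 7.98 in controls and 8.11 and 8.0 with genistein. The first mixture pool thus lay below the first control pool, and the list's median was 0.19 without the second mixture pool and 0.71 without the first.

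Mx2, an antiviral GTPase, had 7.15 and 7.16 with vinclozolin and 8.45 and 9.79 with the mixture (log2 fold change 1.97 ± 0.39 SE, limma adjusted p = 0.157). Usp18, which removes the ubiquitin-like ISG15 from proteins, had 6.67 and 6.74 against 7.39 and 8.70, with controls at 7.87 and 7.11. Herc6, an interferon-induced ligase, had 8.80 and 8.88 against 9.36 and 9.91. Cxcl10, the interferon-induced chemokine, measured 7.66 and 8.26 with vinclozolin, 8.84 and 10.24 with the mixture, and 8.64 and 8.50 in controls. Of these genes Mx2, Herc6 and Cxcl10 had both mixture pools above both control pools, and Usp18 did not. In each gene the second mixture pool was the highest of the PND50 pools.

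Interferon acts through the ISRE, which was searched as GAAANNGAAA on both strands of the same promoters. It was found in 9 of the 13 interferon response genes with an entry (69.2%) and in 3.92% of all promoters. The list was made of known interferon response genes, so this share describes the list and not the pools measured here. The 4 members of smallest p that hold it upstream of the start site are shown with the match in capitals, on the gene's own strand. In Oas1a, 2 matches overlap and form 1 run of capitals.
Cxcl10, chr14:15988816-15988862, plus strand: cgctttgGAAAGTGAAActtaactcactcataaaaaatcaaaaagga
Gbp2, chr2:234005666-234005726, plus strand: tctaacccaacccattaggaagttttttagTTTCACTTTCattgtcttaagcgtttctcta
Ifi44, chr2:243303841-243303896, minus strand: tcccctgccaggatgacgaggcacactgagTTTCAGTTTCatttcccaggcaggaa
Oas1a, chr12:41330395-41330465, plus strand: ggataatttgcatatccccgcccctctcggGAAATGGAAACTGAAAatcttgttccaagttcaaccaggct
Oas1a, an antiviral oligoadenylate synthetase, measured 7.98 and 7.94 with vinclozolin and 8.14 and 9.32 with the mixture. Gbp2, a guanylate-binding GTPase, measured 8.71 and 8.73 against 8.89 and 9.21, and Ifi44 measured 8.55 and 8.54 against 8.64 and 9.21. Gbp2, Ifi44 and Oas1a are named for their sequence and lie outside the rule for named genes.

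Other immune lists lay mostly on the positive side with small differences, and none of their members passed the test. Positive log2 fold changes were found for 19 of 21 chemokine and receptor genes (median 0.13), 17 of 18 macrophage genes (median 0.10), 12 of 15 T and natural killer cell genes (median 0.18) and 10 of 11 mast cell genes (median 0.20), where 52.9% of all genes were positive. The share of members whose mixture pools lay entirely higher was 11 of 21, 8 of 18, 10 of 15 and 8 of 11 in the same order, against 23.7% of all genes tested. Against the PND50 controls, the medians for vinclozolin were -0.10, -0.21, -0.07 and -0.26 in that order. Those for the mixture were 0.09, -0.09, 0.05 and -0.01. The macrophage and mast cell medians of the mixture were thus not above control, and those of vinclozolin were below it. Cxcl11, another interferon-induced chemokine, had 6.06 and 6.18 with vinclozolin and 6.76 and 7.89 with the mixture. Ccl2, a monocyte attractant, had 10.83 and 11.14 against 11.35 and 11.68, but its controls at 11.28 and 11.53 stood at the mixture level.

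Fast skeletal muscle genes had the widest median difference of the 43 lists. All 18 tested members had negative log2 fold changes, from -3.08 to -0.97 with a median of -2.29. In all 18, both mixture pools lay below both vinclozolin pools, where 21.4% of all genes tested did so. None passed the test and 16 had an unadjusted p under 0.05, against 11.4% of all genes. The mean over the list was 9.85 and 8.53 in the vinclozolin pools and 7.60 and 6.61 in the mixture pools, while the controls at 7.60 and 7.47 and the genistein pools at 7.36 and 7.97 lay above the lower mixture pool and near the higher one. The vinclozolin pools therefore stood apart from all other PND50 pools, and their 2 pools differed from each other by more than the controls did.

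Tnnt3, fast troponin T, measured 11.16 and 10.31 with vinclozolin and 8.83 and 7.71 with the mixture. Pvalb, the calcium buffer of fast fibres, measured 8.72 and 7.61 against 6.30 and 5.23, and Eno3, muscle enolase, measured 11.10 and 9.82 against 8.61 and 7.69. Controls stood at 8.89 and 9.12 for Tnnt3, 6.34 and 6.17 for Pvalb and 8.68 and 8.65 for Eno3, near the higher mixture pool in each case. Slow muscle genes were less uniform, with 9 of 12 negative and a median of -0.39, and Mb, myoglobin, at 10.22 and 8.12 against 7.90 and 6.24.

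Muscle signal therefore moved with the comparison. When each array's fast muscle level was added as a covariate, a choice made after the muscle genes were seen, no gene passed (smallest limma adjusted p 0.558). That level itself separated the vinclozolin pools from the mixture pools, so the covariate overlaps with the comparison. The loss of calls therefore does not show what muscle content contributed. The log2 fold changes of the 4 called genes kept their direction there, at 0.80 for Slc4a4, 0.52 for Met, -0.61 for Slc5a1 and -1.05 for C9h2orf72. The fast muscle median was 0.02 with the covariate, which is the mean of that list, and the slow muscle median turned to 0.50. The mitosis median was -0.90 and the interferon median 0.51, and the part of muscle content in the 4 calls was not tested further.

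**Figure D2:**
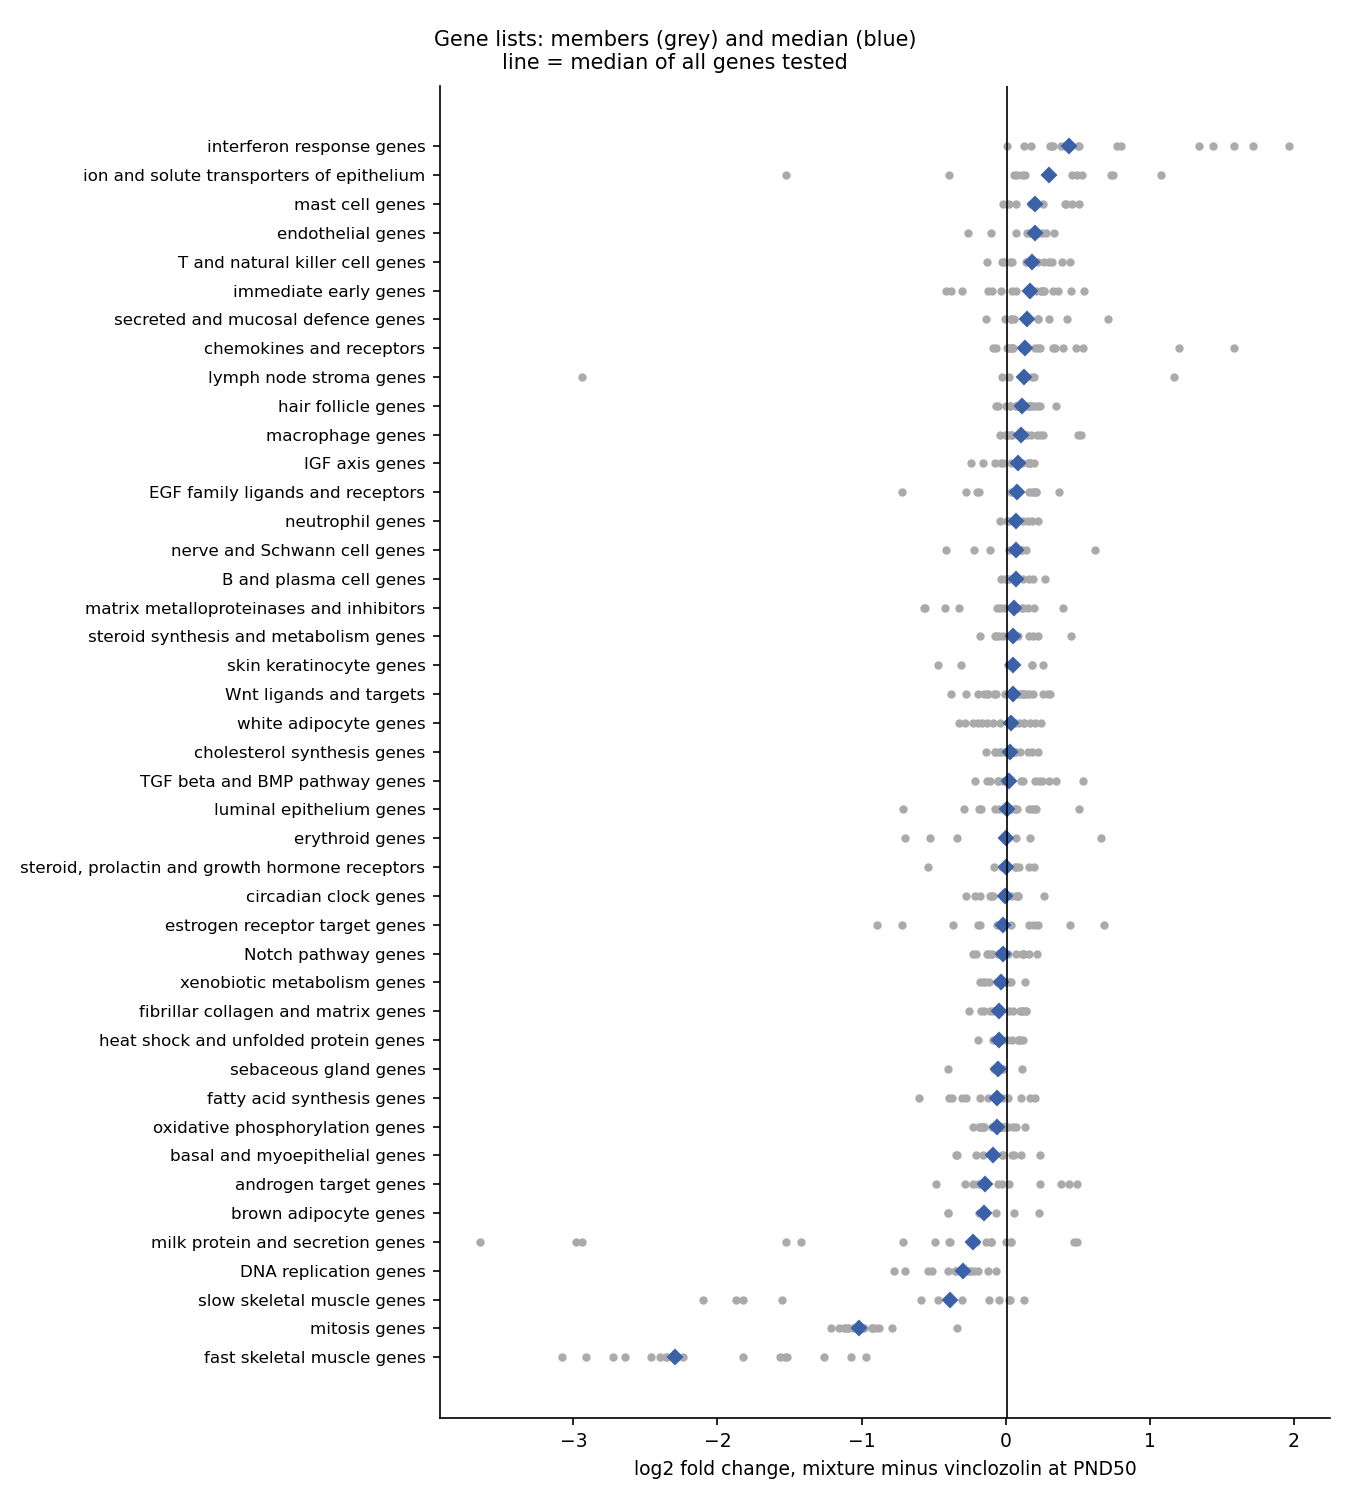
Log2 fold change of the mixture against vinclozolin at PND50 (horizontal axis) for each tested member of 43 gene lists (grey points) with the list median (blue diamonds) and the median of all genes tested (vertical line). Fast skeletal muscle genes (median -2.29) and mitosis genes (median -1.02) lie farthest left, and interferon response genes (median 0.44) farthest right.

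Hormone receptors and their targets showed no shared direction. Of the 11 tested receptor genes 6 had a positive and 5 a negative log2 fold change, and none passed the test. Esr1, estrogen receptor alpha, measured 10.40 and 10.48 with vinclozolin and 10.56 and 10.70 with the mixture, a log2 fold change of 0.19 ± 0.13 (SE). The controls at 10.44 and 10.34 and genistein pools at 10.26 and 10.63 overlapped these values. Pgr, the progesterone receptor, had 9.23 and 9.71 against 9.66 and 9.59, and Prlr, the prolactin receptor, had 9.99 and 10.14 against 10.02 and 10.11, so both overlapped between the groups. Vdr, the vitamin D receptor, stood out among the receptors, with 9.44 and 9.47 against 8.96 and 8.87 and controls at 8.83 and 9.10 (log2 fold change -0.54, limma adjusted p = 0.138).

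Of 15 tested estrogen receptor target genes 6 were positive and 9 negative, with a median of -0.02, and of 15 androgen target genes 5 were positive and 10 negative, with a median of -0.15. Over all genes 47.1% were negative. None of either list passed, and an unadjusted p under 0.05 was reached by 5 estrogen and 1 androgen target genes, against 11.4% of all genes. Both mixture pools lay above both vinclozolin pools in 4 estrogen and 5 androgen targets, and below them in 6 and 5. Over all genes these shares were 23.7% and 21.4%. Areg, the epidermal growth factor ligand that relays estrogen signals in the ducts, had 9.27 and 9.52 with vinclozolin and 9.05 and 8.31 with the mixture, below controls at 9.61 and 9.82 (log2 fold change -0.72, limma adjusted p = 0.329). Igf1, the growth factor that relays growth hormone, had 12.30 and 12.34 against 12.50 and 12.52, and Bcl2, an inhibitor of apoptosis, had 10.09 and 10.28 against 10.53 and 10.74. Both had non-overlapping pools with the mixture higher, which 23.7% of all genes had. Fkbp5, an androgen and glucocorticoid target, had 7.84 and 8.03 against 7.57 and 7.33, and controls at 8.31 and 8.19 lay above both groups.

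Of the 4 called genes, Slc4a4, Met and Slc5a1 had a promoter entry. The palindromic estrogen element (GGTCA and TGACC, 3 bases apart) and androgen element (GAACA and TGTTC, 3 bases apart) were in none of these 3 windows, and in 0.0269% and 0.0508% of all promoters. This says only that those letters are not within the window searched.

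Epithelial lineage genes lay near the all-gene median. Luminal genes had a median of 0.01 with 13 of 21 positive, and basal and myoepithelial genes had a median of -0.09 with 4 of 14 positive. Gata3, a luminal transcription factor, measured 12.05 and 12.15 with vinclozolin and 12.08 and 12.13 with the mixture. Foxa1, a cofactor of the estrogen receptor, had 8.42 and 8.42 against 8.26 and 8.60, and Krt18 had 8.96 and 8.70 against 8.94 and 8.88. These values overlapped, but those of Elf5, the alveolar transcription factor, did not, at 10.70 and 11.02 against 10.60 and 10.54 (log2 fold change -0.29, limma adjusted p = 0.434). Muc1 (-0.71), Epcam (0.21) and Prom1 (0.51) did not overlap either. Both mixture pools lay higher in 5 and lower in 5 of the 21 luminal genes, and higher in 2 and lower in 6 of the 14 basal ones. Over all genes these shares were 23.7% and 21.4%, and no member of either list passed. White adipocyte genes had a median of 0.04 over 19 members.

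**Figure D3:**
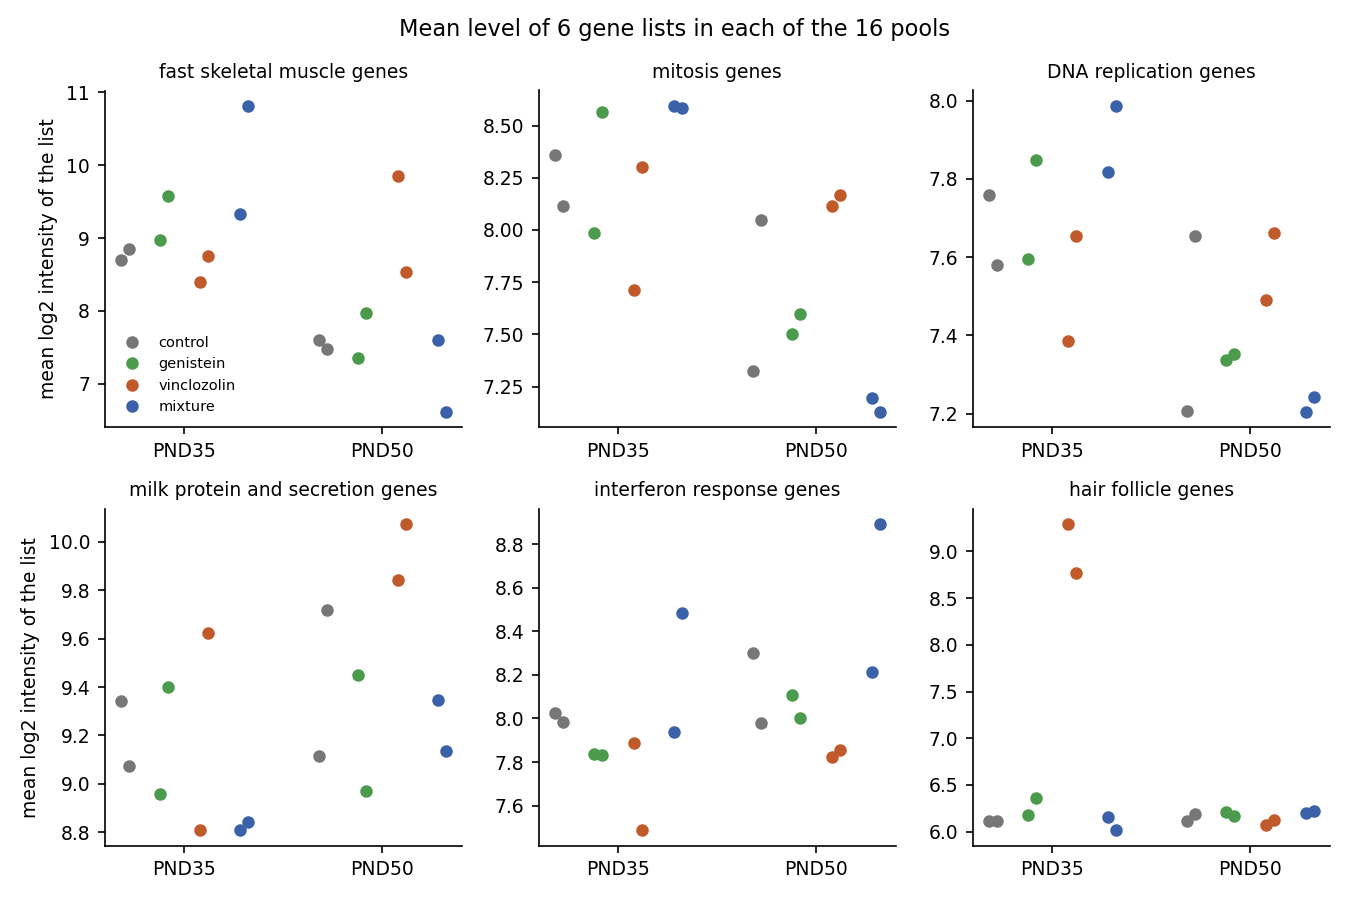
Mean log2 intensity of 6 gene lists (vertical axis) in each of the 16 pools, grouped by age and coloured by treatment, with 2 pools per group. At PND50 the vinclozolin pools lie highest for fast muscle genes and the second mixture pool highest for interferon genes, and at PND35 the vinclozolin pools lie apart for hair follicle genes.

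The same comparison at PND35 gave 308 genes past the test (2.61% of those tested), 137 higher (1.16%) and 171 lower (1.45%) in the mixture, and none of them was among the 4 at PND50. Hair follicle genes, which mark skin rather than gland, had the widest median of any list there (-3.21), and 14 of 16 fell. Their mean level was 9.29 and 8.77 in the vinclozolin pools at PND35 and between 6.01 and 6.36 in all other PND35 pools, against 6.07 and 6.12 with vinclozolin and 6.20 and 6.22 with the mixture at PND50. The part of this skin signal in the PND35 values was not tested.

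The difference between the ages was itself tested. It passed for 389 genes (3.3% of those tested), 155 with the more positive value at PND50 and 234 with the more negative one. Of these, 172 were called at PND35 and 2 at PND50, Slc4a4 and Met. Of the 389, 230 were negative at PND50 and positive at PND35, 137 the reverse, and 22 had the same sign at both ages.

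Hair genes led this difference. Krt25, an inner root sheath keratin, stood at 10.48 and 10.59 in the vinclozolin pools and 5.36 and 4.86 in the mixture pools at PND35, and at 5.03 and 5.15 against 5.25 and 5.23 at PND50. At PND50 no pool carried the PND35 level. Krt27, Krt28, the cornified envelope gene Cnfn and the epidermal gasdermin gene Gsdma followed the same pattern, and 14 of the 16 tested hair follicle genes passed on the positive side, where 1.31% of all genes did.

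Nearly all division and muscle genes had opposite signs at the ages compared, with 16 of 17 mitosis genes and 18 of 18 fast muscle genes positive at PND35. The difference passed on the negative side for 15 of 17 mitosis genes and 16 of 18 fast muscle genes, where 1.98% of all genes did, and for 3 of 15 DNA replication genes. The mitosis median was 0.66 at PND35 against -1.02 at PND50, and the list means at PND35 were 7.71 and 8.30 with vinclozolin and 8.59 and 8.58 with the mixture. The order of the groups was thus turned between the ages, with the mixture pools higher at PND35 and lower at PND50. Fast muscle means at PND35 were 8.40 and 8.75 with vinclozolin and 9.32 and 10.82 with the mixture, so muscle signal turned in the same direction as the mitosis genes did. With the fast muscle covariate, 12 genes passed the age difference instead of 389. The fast muscle level separated the compared groups at both ages, so this drop does not show what muscle content contributed.

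Interferon response genes lay on the same side at both ages. At PND35, 18 of 19 were positive with a median of 0.47 and 1 rose, and the list means were 7.89 and 7.49 with vinclozolin and 7.94 and 8.48 with the mixture. As at PND50, the second mixture pool stood highest, and no member passed the age difference.

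Some of the genes named for the PND50 comparison, transporters among them, differed between the ages as well. Slc5a8 had 8.42 and 8.34 with vinclozolin and 7.75 and 7.25 with the mixture at PND35, lower in the mixture, where at PND50 it was the higher. Kng2 had 7.52 and 7.39 against 6.45 and 5.49 at PND35, and Reg3b 5.82 and 6.06 against 5.23 and 4.91, again with the lower values in the mixture. For these 3 genes the age difference was 1.96, 3.40 and 2.71 on the log2 scale (limma adjusted p = 0.00475, 0.00519 and 0.00686). For Slc4a4 and Met the PND35 fold changes were 0.21 and 0.02, and the age differences 0.52 and 0.44 (limma adjusted p = 0.0459 and 0.0269). The lower genes Slc5a1 and C9h2orf72 kept their direction, each with a log2 fold change of -0.55 at PND35. Their age difference did not pass (limma adjusted p = 0.196 and 0.143). Slc34a2 was also lower in the mixture at PND35 (-0.93), and its age difference did not pass (limma adjusted p = 0.344).

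**Figure D4:**
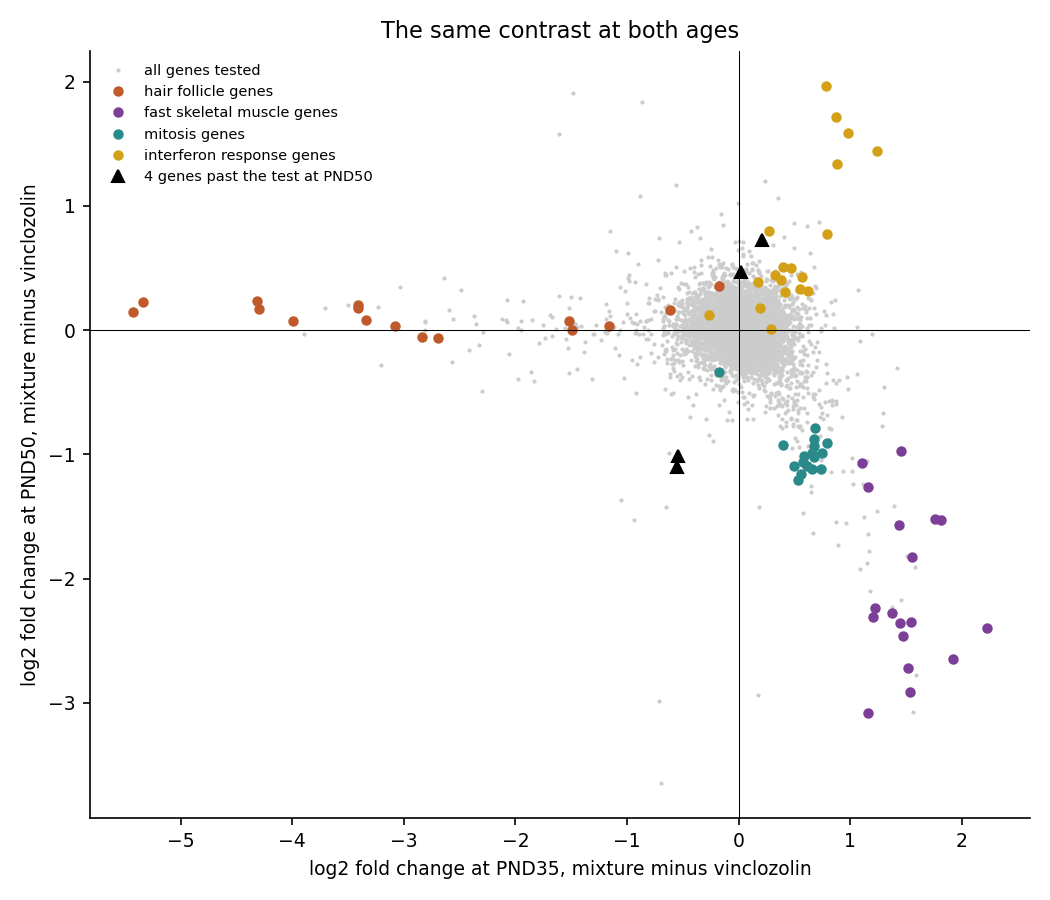
Log2 fold change of the mixture against vinclozolin at PND35 (horizontal axis) and at PND50 (vertical axis) for all genes tested (grey), 4 gene lists (coloured) and the 4 genes past the test at PND50 (black triangles). Hair follicle genes spread far to the left at PND35 and lie near 0 at PND50, and 16 of 17 mitosis genes and all 18 fast muscle genes lie in the lower right, positive at PND35 and negative at PND50.

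Whether genistein differed with and without vinclozolin at PND50 was tested by setting mixture minus vinclozolin against genistein minus control, which share no pool. No gene passed (0 of 11796, smallest limma adjusted p 0.554), and 768 had an unadjusted p under 0.05 (6.51%). Genistein against control at PND50 also called no gene, with 307 at an unadjusted p under 0.05. The smallest p belonged to C9h2orf72, Met and Cytip. Met had a log2 fold change of -0.03 for genistein alone and 0.47 for genistein added to vinclozolin, a difference of 0.49 ± 0.09 (SE, limma adjusted p = 0.755), and C9h2orf72 had 0.11 and -1.10. For the lists, the median difference was -2.44 for fast muscle, -0.86 for mitosis and 0.56 for interferon response genes, against 0.0086 over all genes, with no member past the test.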

How the data were processed

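The 4 pools, and 12 others used for reference, were read from the table of log2 intensities that the authors deposited, with 27342 probe sets and 16 arrays. The log base was taken from the range of the values (2.20 to 13.95), while how they were background-corrected, normalized and summarized is not given in the sources used here. Medians of the arrays ran from 7.05 to 7.14, so values were used as deposited. An annotation of the platform gave 15097 probe sets exactly 1 symbol, 323 several and 11922 none, and 15067 were matched by identifier to RefSeq genes of GRCr8. For a gene with several probe sets, the one with the highest mean was kept. Genes with a mean under the 25th percentile (5.66) were left out.

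Tests used limma 3.58.1 in R 4.3.3 (lmFit and eBayes, 8 group means, 8 residual degrees of freedom, two-sided, Benjamini-Hochberg). On simulated data for the PND50 comparison with 200 of 11796 genes changed, the test found 63% of those set to 0.5 (log2) and 96% of those set to 1, and 5.26% and 5.88% of its calls were false. The simulated noise was normal and independent between genes, whereas members of a list moved together in the real pools. These shares therefore check the procedure and do not give the share of real differences found here. Genes were named by rule: all that passed, then up to 10 per direction by smallest p with a 1.5-fold change and no overlap, the 5 of smallest p of the age difference, 3 of the other difference, up to 4 per list, and a panel, of which Greb1, Krt5 and Acta2 were not analysed here. The 43 lists held 727 genes, 591 of them tested. The comparison and the lists were chosen with earlier results of these data known. Figures used matplotlib 3.10.9.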

Additional observations from a re-analysis of the deposited data

Results flagged for a closer look

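For 44 of the 194 genes named by the rule, the difference of mixture minus vinclozolin between PND50 and PND35 passed limma's test of the difference itself. The hair and skin genes Krt25 (5.57), Krt73 (4.56), Krt27 (4.07), Dsg4 (3.62), Cnfn (2.88), Krt28 (2.78), Gsdma (2.65), Sbsn (1.70) and Krt17 (1.52) differed by the log2 values given, and the vinclozolin pools of Krt25 at PND35 stood high. Of the genes named for the PND50 comparison, the difference was positive for Kng2 (3.40), Reg3b (2.71), Slc5a8 (1.96), Grik3 (1.20), Cytip (0.71), Slc4a4 (0.52) and Met (0.44). It was negative for the muscle genes Pvalb (-4.62), Pygm (-4.24), Tnnt3 (-3.93) and Eno3 (-3.51), and for H2az1 (-0.95), whose probe sets disagree.

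The division and replication genes among them were all negative, with Kif11 (-1.85), Cdc20 (-1.78), Prc1 (-1.73), Top2a (-1.71), Tpx2 (-1.70), Cdk1 (-1.60), Uhrf1 (-1.43), Mcm6 (-1.17) and Tyms (-0.83). Matrix genes were also negative, with Timp1 (-1.08), Mmp16 (-0.92), Col5a2 (-0.67) and Mmp14 (-0.58), as were Vdr (-0.59) and Igfbp4 (-0.40). Positive values were found for Gfra3 (1.61), Cx3cr1 (1.07), Lalba (0.96), Npas2 (0.95), Prdm1 (0.85), Cd14 (0.68), Fst (0.68) and Tgfa (0.66). The groups hold 2 pools each, too few to test a single pool as an outlier.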

How the results depend on the processing

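The 4 genes of the PND50 comparison became 7 with array weights, 8 at an adjusted p threshold of 0.1, 9 with the 8 PND50 arrays alone and 108 with the 4 arrays of the comparison alone. With the fast muscle level as a covariate, added after the data were seen, the counts were 0 for the PND50 comparison and 12 for the age difference. This covariate separated the compared groups at both ages, so the lower counts cannot be assigned to muscle content. Leaving out each pool in turn gave 0 to 10 genes for the PND50 comparison, 64 to 552 for the age difference and 0 to 1 for the difference with and without vinclozolin. The age difference had 64 genes without the second mixture pool at PND50, 65 without the second mixture pool at PND35, 77 without the first vinclozolin pool at PND50, 132 without the first mixture pool at PND50, 179 without the second vinclozolin pool at PND50 and 241 without either control pool at PND35. The PND50 count was 10 without either genistein pool at PND35, and the difference with and without vinclozolin had 1 gene without the first genistein pool at PND50. The age difference had 597 probe sets when all were tested, and 839 genes at a threshold of 0.1. The replicate numbers do not pair the samples (correlations of the deviations of same-numbered pools between -0.3664 and 0.3009), and a replicate block gave 3, 413 and 1 genes for the same comparisons. Over 30 settings, Slc4a4 passed in 23, Slc5a1 in 20 and Met in 16, and C9h2orf72 passed in 20 of the 29 that kept it, each with 1 sign throughout. The 20 genes named for the PND50 comparison itself kept their sign, but 43 of the 194 genes named by the rule or a list had the opposite sign at PND50 in 1 to 4 of the 30 settings, none past the threshold there. The muscle covariate gave 35 of these 54 turns. With it the values were 0.59 for Mb, -0.31 for Prlr, -0.20 for Pgr and Foxa1, -0.10 for Gata3, -0.18 for Krt25 and -0.12 for Krt27, the slow muscle median was 0.50 and the fast muscle median 0.02. The 2 pools per group and the missing detection calls limit what could be called, and the causes of these shifts were not tested.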

Other observations

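Lists that the account above does not describe had small medians at PND50. Single members differed more, such as Cxcl13 (1.17), Gp2 (0.71), Tfrc (-0.70) and Mmp16 (-0.56), and none of these passed the test. Endothelial genes were positive in 10 of 12 members, where 52.9% of all genes tested were (median 0.20, none past the test). Both mixture pools lay above both vinclozolin pools in 9 of the 12, where 23.7% of all genes did so. Secreted and mucosal defence genes were positive in 9 of 11 members (median 0.15, none past the test), and in 7 both mixture pools lay higher. Against 47.1% of all genes, oxidative phosphorylation genes were negative in 17 of 21 (median -0.06), fatty acid synthesis genes in 12 of 16 (median -0.06) and sebaceous gland genes in 7 of 8 (median -0.05), and none of their members passed. Circadian clock, Notch, Wnt, collagen, heat shock and xenobiotic metabolism genes had medians between -0.05 and 0.05.

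The second control pool at PND50 had the highest Glycam1 level of the 8 pools of that age (12.49) and lay with the vinclozolin pools for Top2a (9.26) and Mcm6 (8.08), while the first control pool lay with the mixture pools (8.32, 8.33 and 7.48). The control pools thus covered most of the span between the vinclozolin and mixture pools for these genes.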
